A study of Rattus norvegicus with 12 samples.

Results

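Expression of 10 genes of fatty acid synthesis and desaturation was followed in cardiac fibroblasts from newborn rats, by RNA sequencing of cultures depleted of Yap, of Wwtr1 or of both. The genes were Srebf1, Acly, Acss2, Acaca, Fasn, Elovl6, Scd, Elovl5, Fads1 and Fads2. They were chosen by name, with earlier results of these data known, and all 10 of the 10 listed symbols were present among the 12271 genes of the table. The question was whether genes of the SREBP-1 type follow the genes of sterol synthesis after Wwtr1 siRNA.

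Fibroblasts had been isolated from the heart ventricles of Sprague Dawley rats of age 2 days and kept as primary cultures. They received negative siRNA (a mixture of universal negative control siRNAs #1 and #2), Yap siRNA, Wwtr1 siRNA, or Yap+Wwtr1 siRNA (the double knockdown), with 2 different siRNAs per target, each at 25 nM. Per the labels RNA was taken 48 hours after transfection, whereas the study's methods count the 48 hours from a change of medium on the day after transfection. There were 12 libraries, 3 for each of 4 groups, and the study describes the replicates of a group as separate litters. Per the labels the medium was DMEM with fetal bovine serum in every group, and for the double knockdown the siRNA label lists the Wwtr1 siRNAs alone. Myocytes are named in the series design text, but fibroblasts in the title, the labels and the study.

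Fatty acids are built in the cytosol from acetyl-CoA. Acly makes acetyl-CoA from citrate and Acss2 makes it from acetate, Acaca converts it to malonyl-CoA, and Fasn joins these units into palmitate. Elovl6 lengthens saturated chains and Scd places the first double bond, while Elovl5, Fads1 and Fads2 lengthen and desaturate polyunsaturated chains. Srebf1 encodes SREBP-1, a transcription factor held in the membrane of the endoplasmic reticulum by Scap and the Insig proteins and released by cleavage. It is best known for driving fatty acid genes, and its relative SREBP-2, from Srebf2, for driving sterol genes. RNA levels do not show how much of either protein was cleaved. Yap, encoded by Yap1, and Wwtr1, known as Taz, are transcriptional coactivators that bind TEAD factors and are restrained by the Hippo kinases.

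Depth was between 33.9 and 41.1 M recovered reads per library, and the lowest value of any of the 10 genes was 508 normalized counts. A normalized count is a read count divided by 1 size factor per library. Yap1 fell to 17.7% of its negative siRNA mean after Yap siRNA and to 29.9% in the double knockdown, and Wwtr1 to 23.7% after Wwtr1 siRNA and to 36.1% in the double knockdown. Replicate 3 of the double knockdown stood apart. Its Yap1 value was 1474 normalized counts against 713 and 739 in the other libraries of its group, and its summed macrophage markers were 29782 against a range of 7956 to 18889 in the 9 libraries of the other groups. All 12 fibroblast markers were present, with sums from 3150380 to 4326100 over the 12 libraries. Of 7 adipocyte markers, Adipoq, Plin1, Cidec, Lep and Retn had no row in the table analysed here, and the sum of the remaining pair (Cfd and Fabp4) ran from 190.2 to 283 outside that library, where it was 1035. Cardiomyocyte markers (10 of 10 present) were also expressed, with sums from 43166 to 95763, and 3 were higher in the double knockdown than after negative siRNA, as were 5 of 9 endothelial and 4 of 12 fibroblast markers, with 3 fibroblast markers lower, beside 17.1% higher and 15.6% lower of all genes tested. After Wwtr1 siRNA 1 endothelial marker and no fibroblast or cardiomyocyte marker was called by limma (5 fibroblast and 0 cardiomyocyte markers had an unadjusted p under 0.05). With the replicate number as a block in the fit of the negative, Yap and Wwtr1 siRNA libraries, however, 6 cardiomyocyte markers were higher and 1 lower after Wwtr1 siRNA, and 4 fibroblast markers were higher and 4 lower, beside 21.3% of all genes in either direction. After Yap siRNA that fit had 4 cardiomyocyte and 5 fibroblast markers higher and 1 fibroblast marker lower, beside 16% of all genes. The part of these shifts in the results was not tested. In bulk RNA, fewer cells of a type and less RNA per cell cannot be told apart.

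After Wwtr1 siRNA, 4 of the 10 genes were lower than after negative siRNA and none was higher. Scd fell most, to 49.6% of its negative siRNA mean, followed by Fasn at 67.2%, Elovl6 at 68.7% and Acly at 71.2%. Srebf1, Acaca, Elovl5, Fads1 and Fads2 stayed between 95% and 116% of their negative siRNA means and none passed the test, while Acss2 stood at 71.9% and was not called. Over all 11871 genes tested, 3.96% were lower and 5% were higher. All adjusted p-values are from limma on log2(normalized count + 1) with Benjamini-Hochberg adjustment over all genes tested, and a gene was called at an adjusted p under 0.05. The median log2 fold change of the 10 genes was -0.27, against 0.00 over all genes tested. With the block 5 of the 10 were called, beside 21.3% of all genes in either direction, the addition being Acss2 (adjusted p = 0.0037). DESeq2 on recovered reads also called these 5, with 1545 genes called in all, and edgeR called 4, with 1039 in all. The limma fit without the block called 1064 genes in all.

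**Figure D1:**
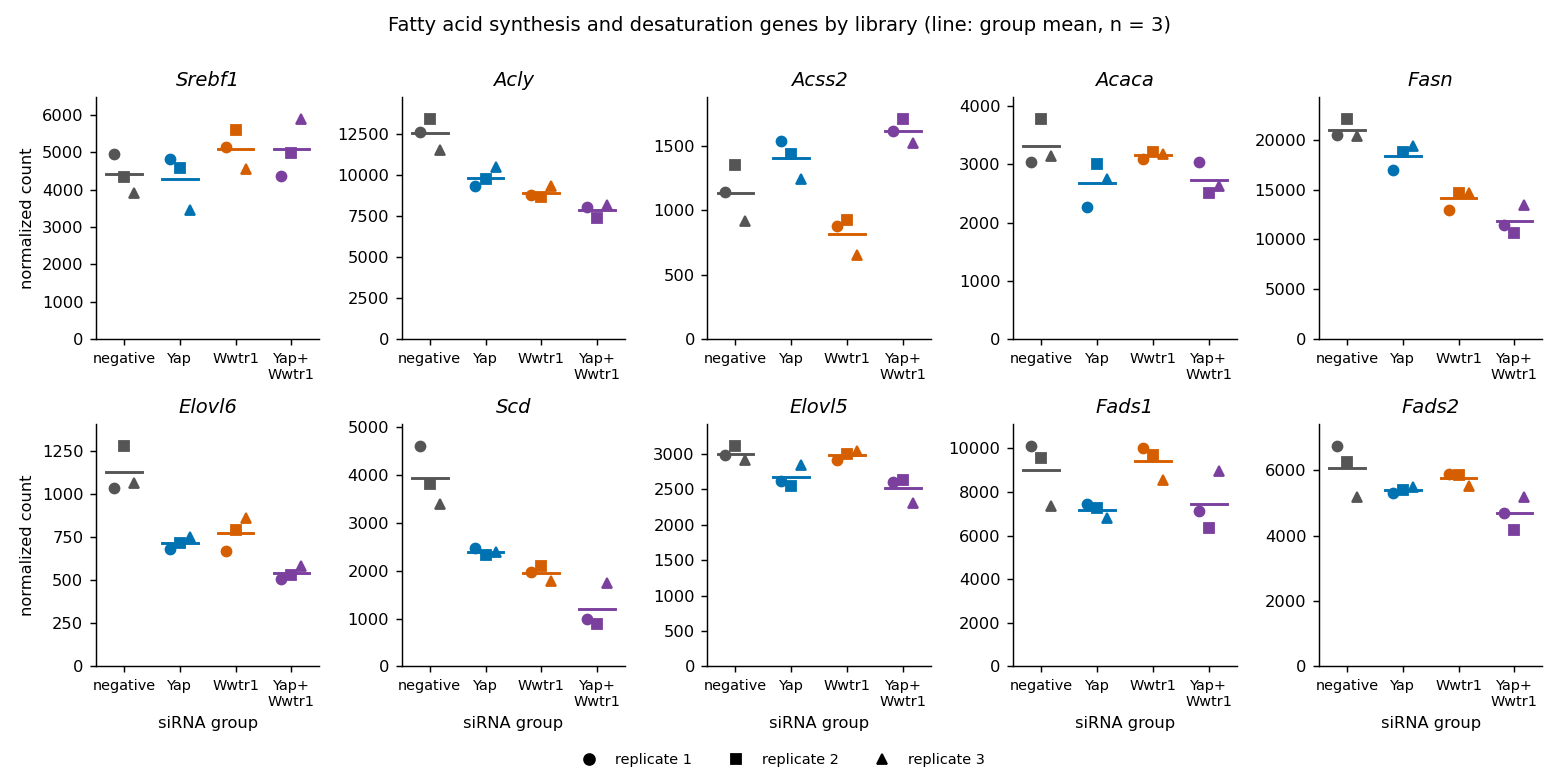
Normalized count (y axis, from 0) of each of the 10 genes in each library (points, marker by replicate number) of the 4 siRNA groups (x axis), with the mean of 3 libraries as a line. The 3 Wwtr1 siRNA values of Fasn, Acly, Elovl6 and Scd all lie below the 3 negative siRNA values, and those of Srebf1 do not.

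The sequence before the start was examined because these genes moved together only in part. RefSeq promoters on build GRCr8 were matched by symbol for 7 of the 10 genes, not for Fasn, Acaca or Elovl6, in 8 windows of 300 bases (250 before and 50 after the start), since Srebf1 has 2. The 250 bases before the start are shown for Acly and Scd, which fell after Wwtr1 siRNA, for Acss2, which was higher in the double knockdown, and for the sterol gene Hmgcs1, each 5′ to 3′ on the strand of the gene. Capitals mark CCAAT (NF-Y box), GGGCGG (Sp1 box), GGAATG (TEAD box) or CACGTG (E-box) on either strand.

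Acly (chr10:85963632-85963881, minus strand): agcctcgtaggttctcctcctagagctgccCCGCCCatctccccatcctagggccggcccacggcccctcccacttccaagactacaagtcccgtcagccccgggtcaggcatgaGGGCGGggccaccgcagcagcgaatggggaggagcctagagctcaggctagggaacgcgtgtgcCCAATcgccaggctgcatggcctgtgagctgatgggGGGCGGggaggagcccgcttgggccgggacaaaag

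Scd (chr1:253231732-253231981, minus strand): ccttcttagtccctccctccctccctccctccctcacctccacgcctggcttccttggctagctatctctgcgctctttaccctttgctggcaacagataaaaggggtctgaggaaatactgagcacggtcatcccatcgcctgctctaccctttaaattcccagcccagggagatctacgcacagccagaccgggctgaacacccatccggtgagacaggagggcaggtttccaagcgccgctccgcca

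Acss2 (chr3:164464453-164464702, plus strand): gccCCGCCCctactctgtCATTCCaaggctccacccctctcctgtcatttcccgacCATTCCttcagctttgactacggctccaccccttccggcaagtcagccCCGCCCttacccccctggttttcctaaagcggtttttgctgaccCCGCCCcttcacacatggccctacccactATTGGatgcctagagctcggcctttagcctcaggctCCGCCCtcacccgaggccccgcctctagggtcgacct

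Hmgcs1 (chr2:53382054-53382303, plus strand): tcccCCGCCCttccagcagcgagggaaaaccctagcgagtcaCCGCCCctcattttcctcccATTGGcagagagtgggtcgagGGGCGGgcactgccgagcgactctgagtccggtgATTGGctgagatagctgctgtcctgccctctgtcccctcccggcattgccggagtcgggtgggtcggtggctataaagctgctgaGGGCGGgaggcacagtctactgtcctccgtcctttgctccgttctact

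The window of Scd held none of the letters searched, that of Acly held 1 NF-Y box and 3 Sp1 boxes, and that of Acss2 held 1 NF-Y box, 5 Sp1 boxes and 2 TEAD boxes over its 300 bases. Of the 7 genes with a window, 5 had an NF-Y box, 5 an Sp1 box, 1 a TEAD box and 1 (Elovl5) an E-box. Among all 33469 windows of the same length, 37.5% held an NF-Y box, 33.1% an Sp1 box, 14.2% a TEAD box and 6.42% an E-box. The sterol response letters TCACNCCAC, present in 1.12% of all windows, were in none of the 7 genes and in none of the 15 sterol genes with a window, of which 12 had an NF-Y box and 13 an Sp1 box. The exact DR4 repeat read by LXR was in none of either list and in 2 of all 33469 windows (0.00598%), too few for its absence to be informative. Only exact letters were searched, so sites with other letters could lie in these windows. Letters that are absent from this window say nothing about sites elsewhere.

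Srebf1 RNA did not pass the test in any comparison with the negative siRNA, and its mean was between 97.1% and 116% of the negative siRNA mean in the 3 knockdowns. Its values were 4969.7, 4345 and 3924 normalized counts after negative siRNA and 5134, 5601 and 4556 after Wwtr1 siRNA, so that the groups overlapped. The log2 fold change after Wwtr1 siRNA was 0.21 ± 0.14 (SE, adjusted p = 0.418), with a 95% interval from -0.10 to 0.52. Yap siRNA gave 4818, 4579 and 3464, and the double knockdown 4381, 4985 and 5903. Neither group separated from negative siRNA (log2 fold changes -0.05 and 0.20, adjusted p = 0.896 and 0.309). The lower bounds of the intervals were -0.36 after Yap siRNA and -0.11 in the double knockdown. Srebf2, which encodes SREBP-2, was lower by contrast after Wwtr1 siRNA, at 4004, 4713 and 4401 against 8247, 8201 and 8015 normalized counts (log2 fold change -0.90 ± 0.09 SE, adjusted p = 0.000191). The table gives 1 value per gene, so the 2 starts that RefSeq lists for Srebf1 could not be separated.

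The enzymes that supply acetyl-CoA stood at like shares of their negative siRNA means after Wwtr1 siRNA (71.2% for Acly and 71.9% for Acss2) and on opposite sides of them after Yap siRNA and in the double knockdown. Acly (ATP citrate lyase) had 12624, 13413 and 11526 normalized counts after negative siRNA, 8743, 8666 and 9338 after Wwtr1 siRNA, 9301, 9739 and 10455 after Yap siRNA and 8028, 7373 and 8185 after both siRNAs. Every library of each knockdown lay below every negative siRNA library. The log2 fold changes were -0.49 ± 0.07 (SE, adjusted p = 0.0023) after Wwtr1 siRNA, -0.35 ± 0.07 (adjusted p = 0.0248) after Yap siRNA and -0.67 ± 0.07 (adjusted p = 6.9e-05) in the double knockdown. The Yap siRNA call was lost when any one of negative siRNA replicates 1 and 2 and Yap siRNA replicates 1 and 2 was left out, with values from -0.41 to -0.30 over all single omissions. It was also lost without the intensity trend (adjusted p = 0.0553) and on the compared groups alone (0.0542).

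Acss2 (acetyl-CoA synthetase 2) was the only one of the 10 genes that was higher in the double knockdown than after negative siRNA. Negative siRNA gave 1144, 1353 and 916 normalized counts. Wwtr1 siRNA gave 879.6, 926 and 650.3, with 1 library above the lowest negative siRNA library. The fold change of -0.47 ± 0.16 (SE, log2) had an adjusted p of 0.0862 without the replicate block and 0.0037 with it, and it also passed the test without negative siRNA replicate 3 and with DESeq2 on recovered reads (adjusted p = 0.0381). After Yap siRNA the values were 1542, 1437 and 1240.1 (log2 fold change 0.32 ± 0.16 SE, adjusted p = 0.292 and, with the block, 0.0328). They were 1613, 1712 and 1525 in the double knockdown, all above the highest negative siRNA library (log2 fold change 0.52 ± 0.16 SE, adjusted p = 0.0242). This last call was lost when any one of negative siRNA replicates 1 and 3 and double knockdown replicates 1 and 2 was left out, with values from 0.38 to 0.66.

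Of the 2 enzymes that carry acetyl-CoA to palmitate, Fasn fell and Acaca, in the fit of all libraries without the block, did not pass the test in any comparison with the negative siRNA. Fasn (fatty acid synthase) had 20498, 22119.6 and 20392 normalized counts after negative siRNA against 12999, 14647 and 14714 after Wwtr1 siRNA and 11422, 10623 and 13457 after both siRNAs. Both knockdown groups lay wholly below negative siRNA, with log2 fold changes of -0.57 ± 0.09 (SE, adjusted p = 0.0029) and -0.83 ± 0.09 (adjusted p = 6.9e-05). After Yap siRNA the values were 17012, 18751 and 19366, closer to the controls (-0.19 ± 0.09 SE, adjusted p = 0.27 and, with the block, 0.0330). Acaca (acetyl-CoA carboxylase 1) ranged from 3041 to 3783 after negative siRNA, from 3089 to 3203 after Wwtr1 siRNA, from 2267 to 2999.7 after Yap siRNA and from 2508 to 3036 in the double knockdown. Its log2 fold changes were -0.07 (95% interval -0.32 to 0.18, adjusted p = 0.778), -0.32 (adjusted p = 0.148 and, with the block, 0.0179) and -0.28 (adjusted p = 0.0775) in that order. The last passed the test when Yap siRNA replicate 1 or double knockdown replicate 1 was left out, and with upper-quartile scaling (adjusted p = 0.0445).

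Elovl6 and Scd, which turn palmitate into longer and monounsaturated chains, had the largest falls of the 10 in the double knockdown. Scd (stearoyl-CoA desaturase), whose promoter window held none of the letters searched, had 4604, 3809 and 3391 normalized counts after negative siRNA, 2472, 2319 and 2383 after Yap siRNA, 1975, 2100.2 and 1783 after Wwtr1 siRNA and 991, 886 and 1745 after both siRNAs. The 4 groups did not overlap. The log2 fold changes were -0.71 ± 0.20 (SE, adjusted p = 0.0726 and, with the block, 0.000363) after Yap siRNA, -1.0 ± 0.20 (adjusted p = 0.0099) after Wwtr1 siRNA and -1.76 ± 0.20 (adjusted p = 8.4e-05) in the double knockdown, where Scd stood at place 102 of 11871 from the lowest. Without double knockdown replicate 3, which had the highest Scd value of its group, the last was -2.06 (adjusted p = 1.6e-06) and the Yap siRNA change also passed the test. That change was also called, with no block, by DESeq2 (adjusted p = 0.0102), on the compared groups alone (0.0148) and with all double knockdown libraries left out (0.0085).

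For Elovl6 (fatty acid elongase 6) the libraries held 1037, 1280.5 and 1066 normalized counts after negative siRNA, 680.3, 716 and 749.9 after Yap siRNA, 673, 791 and 859.7 after Wwtr1 siRNA and 508, 533 and 581 after both siRNAs. The single knockdowns overlapped each other, and all 3 knockdown groups lay below negative siRNA. The log2 fold changes were -0.65 ± 0.11 (SE, adjusted p = 0.0108), -0.54 ± 0.11 (adjusted p = 0.0122) and -1.06 ± 0.11 (adjusted p = 6.1e-05). The Wwtr1 siRNA call was lost without negative siRNA replicate 2 or without Wwtr1 siRNA replicate 1, and the Yap siRNA call without Yap siRNA replicate 1.

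None of the 3 enzymes of polyunsaturated chains passed the test after Wwtr1 siRNA. Elovl5 (fatty acid elongase 5) had 2988, 3116 and 2921 normalized counts after negative siRNA and 2914, 3002 and 3049 after Wwtr1 siRNA, a log2 fold change of -0.01 with a 95% interval from -0.16 to 0.14. For Fads1 (the delta-5 desaturase) the change was 0.08 (-0.22 to 0.37) and for Fads2 (the delta-6 desaturase) -0.07 (-0.28 to 0.15). None of these intervals reached the fall of Fasn. Elovl5 had 2602, 2641 and 2304 in the double knockdown (log2 fold change -0.26 ± 0.07 SE, adjusted p = 0.0147), a call lost without negative siRNA replicate 2. Fads2 fell from 6746, 6239 and 5196 to 4693, 4183 and 5197 (-0.37 ± 0.10 SE, adjusted p = 0.0135), with its highest double knockdown library level with the lowest negative siRNA library, and this call was lost without negative siRNA replicate 1 or double knockdown replicate 2 and on the compared groups alone (adjusted p = 0.0607). Fads1 values were 10114, 9540.0 and 7342 after negative siRNA and 7108, 6347 and 8947 in the double knockdown, which overlapped (-0.27 ± 0.14 SE, adjusted p = 0.148). Fads1 passed the test without double knockdown replicate 3 (-0.41, adjusted p = 0.0251) or without negative siRNA replicate 3. The values of the 3 genes after Yap siRNA were between 79.7% and 89.1% of their negative siRNA means, and only Fads1 passed the test with the block (log2 fold change -0.31, adjusted p = 0.0090).

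**Figure D2:**
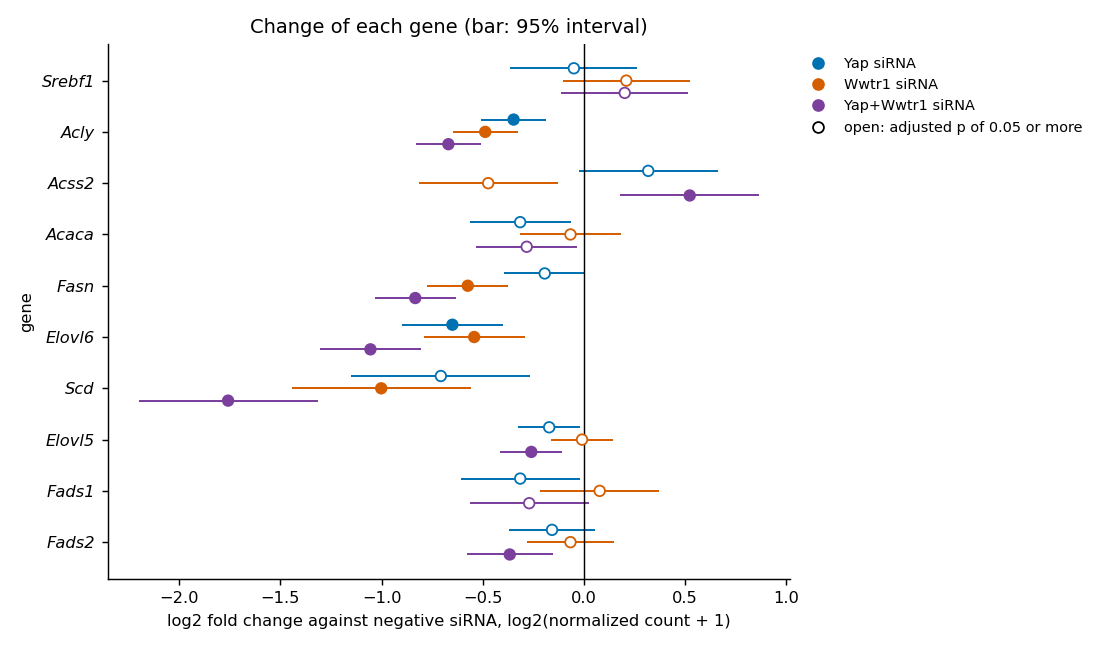
Log2 fold change of each of the 10 genes (y axis) after Yap siRNA, Wwtr1 siRNA and Yap+Wwtr1 siRNA against negative siRNA (x axis), as points with 95% intervals from limma, filled where the adjusted p is under 0.05. The 4 filled Wwtr1 siRNA points are Acly, Fasn, Elovl6 and Scd, and Acss2 is the only gene with a filled point above 0.

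Counted together, 2 of the 10 genes were lower after Yap siRNA (Acly and Elovl6) and none higher, beside 1.78% lower and 3.02% higher of all genes tested. With the block, 7 of the 10 were called after Yap siRNA (6 lower and Acss2 higher), beside 16% of all genes. That fit also leaves out the double knockdown libraries. A block over all libraries called 2, both lower, and DESeq2 called 3 (Scd added). Without Yap siRNA replicate 1 none of the 10 was called by limma, in a fit that called 111 of the 11871 genes. The double knockdown had 6 lower genes and 1 higher gene of the 10, beside 15.6% and 17.1% of all genes tested. Without double knockdown replicate 3 the count was 7 lower (Fads1 added) and 1 higher, beside 34.2% of all genes in either direction. The medians over the 10 genes were -0.25 after Yap siRNA and -0.32 in the double knockdown, against 0.00 over all genes in both. In the fit of all libraries without the block, Srebf1, Acaca and Fads1 were called in none of the 3 comparisons with the negative siRNA.

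The effect of Wwtr1 siRNA was also measured in cells that received Yap siRNA, by comparing the double knockdown with cells given Yap siRNA alone. Yap1 RNA was higher in the double knockdown than after Yap siRNA alone (log2 difference 0.67, adjusted p = 0.0623 by limma, and 0.76, adjusted p = 0.0072 by DESeq2). Wwtr1 siRNA was thus not shown to be the only difference between these groups. The part of Yap1 in this comparison and in the interaction built on it was not tested. This comparison shares no library with that of Wwtr1 siRNA and negative siRNA. In it 4 of the 10 genes were lower and none higher, beside 6.96% and 6.83% of all genes tested, and the 4 were again Scd (log2 fold change -1.05 ± 0.20 SE, adjusted p = 0.0063), Fasn (-0.64 ± 0.09, adjusted p = 0.0013), Elovl6 (-0.40 ± 0.11, adjusted p = 0.0367) and Acly (-0.32 ± 0.07, adjusted p = 0.0147). Acaca, Elovl5, Fads1, Fads2 and Srebf1 had values between -0.21 and 0.25 and were not called. Fitted on these 2 groups alone, Scd and Fasn passed the test and Elovl6 and Acly did not (adjusted p = 0.0689 and 0.0574). The Elovl6 call was also lost in 6 of the 12 fits without a single library, and that of Acly without Yap siRNA replicate 3 or double knockdown replicate 2. In the fit of all libraries 2 of 12 fibroblast markers were higher and 3 lower, and 2 of 9 endothelial and 1 of 10 cardiomyocyte markers were higher. All 10 macrophage markers tested had values below 0 in this comparison (median log2 fold change -0.56), none was called by limma and 1 had an unadjusted p under 0.05. Without double knockdown replicate 3, 8 of them were lower, in a fit that called 1873 genes, and the same 4 fatty acid genes were called. The part of these markers was not tested.

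Whether the Wwtr1 siRNA effect differed with and without Yap siRNA was tested by the interaction on the log2 scale. None of the 10 genes passed (1 had an unadjusted p under 0.05), beside 1.03% of all genes tested, and edgeR and DESeq2 on recovered reads also called none. For Scd, Fasn, Acly and Elovl6 the interactions were -0.05, -0.07, 0.17 and 0.14, with 95% intervals of -0.68 to 0.58, -0.35 to 0.22, -0.06 to 0.39 and -0.21 to 0.49. The gene with the low unadjusted p was Acss2, which moved by -0.47 after Wwtr1 siRNA alone and by 0.21 when Yap siRNA was present (interaction 0.68 ± 0.22 SE, adjusted p = 0.188 and, with a block over all libraries, 0.0387). That block pairs the double knockdown libraries by number, and those numbers were not shown to be pairs.

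**Figure D3:**
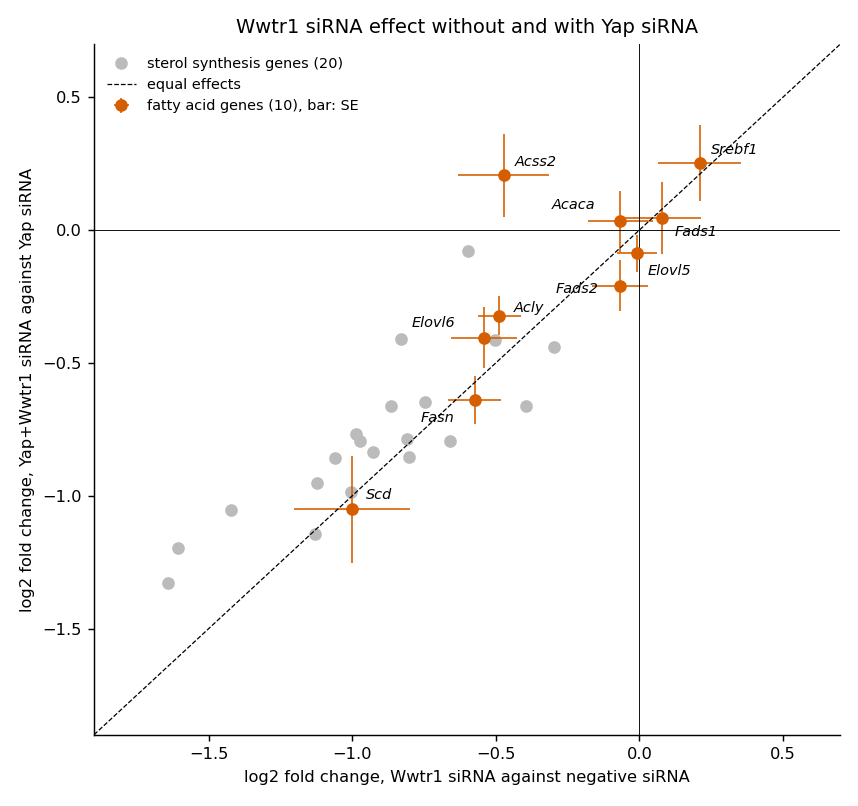
Log2 fold change of Wwtr1 siRNA against negative siRNA (x axis) and of Yap+Wwtr1 siRNA against Yap siRNA (y axis) for the 10 fatty acid genes (orange, with SE) and 20 sterol synthesis genes (grey), with the dashed line where both effects are equal. Scd, Fasn, Elovl6 and Acly are below 0 on both axes, the 5 uncalled genes other than Acss2 lie near 0, and Acss2 lies at -0.47 and 0.21.

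Yap and Wwtr1 siRNA were then compared directly. Fasn was higher after Yap than after Wwtr1 siRNA (log2 difference 0.38 ± 0.09 SE, adjusted p = 0.0266), as was Acss2 (0.79 ± 0.16, adjusted p = 0.0108). These 2 of 10 stood beside 4.57% higher and 4.22% lower of all genes tested. Of the 6 Yap and Wwtr1 siRNA libraries, leaving out any but Yap siRNA replicate 1 ended the Fasn call, as did a fit without the intensity trend (adjusted p = 0.0506). With the block 6 of the 10 were called, beside 22.6% of all genes: Scd was also higher after Yap siRNA (0.29, adjusted p = 0.0291), and Acaca (-0.25, adjusted p = 0.0388), Fads1 (-0.39, adjusted p = 0.0023) and Srebf1 (-0.26, adjusted p = 0.0273) were lower. In that fit 5 of 10 macrophage markers and 6 of 12 fibroblast markers were higher after Yap siRNA and 2 fibroblast markers were lower, and their part in these values was not tested. With no block, Fads1 was also called by DESeq2 (adjusted p = 0.0413), on the compared groups alone (0.0255) and without double knockdown replicate 3. Acly and Elovl6 did not separate the single knockdowns (0.14 and -0.11, with 95% intervals of -0.02 to 0.30 and -0.36 to 0.14).

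Against Wwtr1 siRNA alone, 4 of the 10 genes were lower and 1 was higher in the double knockdown, beside 10.1% and 9.75% of all genes tested. In the same fit 3 of 12 fibroblast markers were higher and 2 lower, and 2 of 9 endothelial and 1 of 10 cardiomyocyte markers were higher. None of 10 macrophage markers was called, and 3 were lower without double knockdown replicate 3. The part of these markers was not tested. Acss2 was higher (log2 difference 1.00 ± 0.16 SE, adjusted p = 0.0015). Scd (-0.76 ± 0.20, adjusted p = 0.0221), Elovl6 (-0.51 ± 0.11, adjusted p = 0.0091), Elovl5 (-0.25 ± 0.07, adjusted p = 0.0275) and Fads2 (-0.30 ± 0.10, adjusted p = 0.0496) were lower. The Fads2 call did not survive 9 of the 12 single omissions, nor the Scd call 4 of them (Wwtr1 siRNA replicates 1 and 2 and double knockdown replicates 1 and 2), nor the Elovl5 call 3 (Wwtr1 siRNA replicates 2 and 3 and double knockdown replicate 3). On these groups alone Scd, Elovl5 and Fads2 were not called (adjusted p = 0.0740, 0.0718 and 0.0667). Fads2 was not called either with a pseudocount of 0.1, without the filter on low values, without the trend or with a block over all libraries (adjusted p from 0.0503 to 0.0799). Without double knockdown replicate 3, 6 of the 10 were called, beside 18.9% of all genes: Fasn (-0.36, adjusted p = 0.0131) and Fads1 (-0.49, adjusted p = 0.0197) were added and Elovl5 (-0.19, adjusted p = 0.0812) was lost. The main fit did not call Fasn (adjusted p = 0.0668). With all libraries kept it was called with upper-quartile scaling (0.0498), by DESeq2 (0.0429) and with a block over all libraries (0.0449).

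For sterol synthesis 20 genes were listed, and 19 of them were lower after Wwtr1 siRNA, beside the 4 of 10 fatty acid genes and 3.96% of all genes tested. The exception was Pmvk (-0.30, adjusted p = 0.169). The median log2 fold change of the sterol genes was -0.90, within a range from -1.64 to -0.30. Hmgcs1 (the HMG-CoA synthase of the cytosol) fell most, from 13291, 13066 and 11326 to 3638, 4173 and 4249.6 normalized counts. Sqle (squalene epoxidase) fell by 0.99 on the log2 scale. Only Scd of the 10 fatty acid genes lay below the sterol median, and 17 of the 20 sterol genes had lower values than Fasn and 7 lower values than Scd. In the double knockdown 19 sterol genes were lower (Ebp was not called), beside 15.6% of all genes, with a median of -1.14. After Yap siRNA 8 were lower, beside 1.78%, or 15 with the block, beside 16% in either direction, with a median of -0.39. Compared directly, 15 of the 20 were higher after Yap than after Wwtr1 siRNA, beside 4.57% of all genes, and 18 were lower in the double knockdown than after Yap siRNA, beside 6.96%. Whether the lists differed from each other was not tested.

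The genes that hold and release SREBP proteins also divided. Of 12 listed genes of SREBP control and sterol uptake 10 were tested, and after Wwtr1 siRNA 3 were lower and 1 higher, beside 3.96% and 5% of all genes. Srebf2, Stard4 (a sterol carrier, -0.94 ± 0.18 SE, adjusted p = 0.0069) and Insig1 (which holds Scap in the endoplasmic reticulum, -0.73 ± 0.13, adjusted p = 0.0060) fell, and Scap (the SREBP escort) rose, from 3737, 3835 and 3612 to 4842, 4746 and 4806 normalized counts (0.36 ± 0.07, adjusted p = 0.0066). Scap was again higher in the double knockdown (0.44, adjusted p = 0.00053). Insig2 gave 0.08 (adjusted p = 0.865). With the double knockdown 4 genes of this list were lower and 2 higher, beside 15.6% and 17.1% of all genes.

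Of the genes that supply acetyl units and reducing power, 3 fell after Wwtr1 siRNA. From 13 listed genes of acetyl-CoA and NADPH supply and lipogenic control 12 were tested, and none was higher, beside 3.96% lower and 5% higher of all genes. Aacs (acetoacetyl-CoA synthetase) fell to 42.8% of its negative siRNA mean, at 1148, 1154 and 1143 against 3033, 2478 and 2533 normalized counts (log2 fold change -1.22 ± 0.10 SE, adjusted p = 9.3e-05). Slc25a1, the mitochondrial citrate carrier that feeds Acly, fell to 72% (-0.47 ± 0.09, adjusted p = 0.0062). Idh1, an isocitrate dehydrogenase that makes NADPH in the cytosol, gave -0.40 ± 0.07 (adjusted p = 0.0040). Me1 (malic enzyme, also a source of NADPH) stood at 105% and Mid1ip1 (an activator of acetyl-CoA carboxylase) at 108%, neither called. After Yap siRNA Mid1ip1 was lower (-0.34, adjusted p = 0.0460), a call lost in 9 of the 12 single omissions, and Me1 was called with the block alone (-0.30, adjusted p = 0.265 without it and 0.0073 with it). Both fell in the double knockdown, Me1 to 52.4% (-0.95 ± 0.14, adjusted p = 0.000402) and Mid1ip1 to 55.8% (-0.85 ± 0.09, adjusted p = 4e-05), where 6 genes of the list were lower and 1 higher, beside 15.6% and 17.1% of all genes. Acacb, the acetyl-CoA carboxylase of the mitochondrial surface, rose there from 178, 238 and 162 to 493, 392 and 339 (1.08 ± 0.29, adjusted p = 0.0132) but not after Wwtr1 siRNA (0.06, adjusted p = 0.934). The Acacb call was lost without negative siRNA replicate 3 or double knockdown replicate 1.

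Other elongases and desaturases gave no common direction after Wwtr1 siRNA. Of 15 listed genes 10 were tested, with Tecr (the last reductase of elongation, -0.41 ± 0.10 SE, adjusted p = 0.0295) lower and Elovl4 (0.52 ± 0.13, adjusted p = 0.0288) higher, each lost in 5 of the 12 fits without a single library. Over all genes 3.96% were lower and 5% higher. Elovl1 gave -0.13 (adjusted p = 0.492). Fads3, the third gene of the Fads family, is described for comparison with its relatives. It had 9811, 9679.9 and 11602 normalized counts after negative siRNA, 5956, 5586 and 7453 after Yap siRNA, 8088, 9285 and 10271 after Wwtr1 siRNA and 3096, 3747 and 3615 after both siRNAs. Its log2 fold changes were -0.72 (adjusted p = 0.0105), -0.17 (adjusted p = 0.451) and -1.57 (adjusted p = 1e-05), the first no longer called without negative siRNA replicate 3, Yap siRNA replicate 1 or Yap siRNA replicate 2. Of this list 5 genes were lower and 2 higher in the double knockdown, where 15.6% and 17.1% of all genes were.

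Scd2, a close relative of Scd, had 45342, 43821 and 37821 normalized counts after negative siRNA, 33764, 35536 and 32187 after Wwtr1 siRNA and 24853, 25832 and 40184 after both siRNAs. It passed the test in the double knockdown (log2 fold change -0.51 ± 0.15 SE, adjusted p = 0.0202) but not on those 2 groups alone (adjusted p = 0.0801), nor without any one of negative siRNA replicates 1 and 2 and double knockdown replicates 1 and 2. The change after Wwtr1 siRNA was -0.32, with an adjusted p of 0.217 in the fit of all libraries and of 0.0041 with the block, which leaves out the double knockdown libraries. With these left out and no block it was 0.0280, and without double knockdown replicate 3 alone 0.0189. How reads matching both Scd and Scd2 were assigned is not given in the sources used here, so the division between them is uncertain. The double knockdown library with the highest Scd and Scd2 values is the one with the highest summed macrophage markers. Over the 10 macrophage markers present of 11 listed, the sums ran from 13024 to 18889 after negative siRNA, from 11558 to 17558 after Yap siRNA, from 7956 to 11941 after Wwtr1 siRNA and from 4657 to 29782 in the double knockdown. After Wwtr1 siRNA none of these markers was called by limma in the fit of all libraries (1 had an unadjusted p under 0.05) and 7 were lower with the block, beside 21.3% of all genes in either direction. In the double knockdown 1 was lower with all libraries, and 9 were once replicate 3 was left out, beside 34.2% of all genes. Their part in the falls of Scd, Scd2 and the other genes was not tested.

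Of 15 listed genes of acyl activation and glycerolipid assembly 14 were tested, and after Wwtr1 siRNA 1 was lower (Acsl4, an acyl-CoA synthetase for long polyunsaturated chains, -0.64 ± 0.08 SE, adjusted p = 0.0011) and 2 were higher, beside 3.96% and 5% of all genes. Dgat2, which completes triglycerides, rose from 286, 262 and 188 to 599, 507 and 409.5 normalized counts (1.04 ± 0.19, adjusted p = 0.0062), and to 585, 455 and 584 in the double knockdown (1.15, adjusted p = 0.0009). There 5 genes of this list were higher and 4 lower, beside 17.1% and 15.6% of all genes, the largest fall being Agpat2 (-0.62, adjusted p = 0.0048). Among 14 genes of fatty acid oxidation, Cpt1a, which admits long chains to the mitochondrion, was higher in each knockdown. It had 1069, 976 and 1017 normalized counts after negative siRNA, 1511, 1635 and 1616 after Yap siRNA, 1863, 1654 and 1595 after Wwtr1 siRNA and 3472, 2894 and 2064 after both siRNAs. Its log2 fold changes were 0.64 (adjusted p = 0.0353), 0.74 (adjusted p = 0.0094) and 1.43 (adjusted p = 4.5e-05). The Yap siRNA call did not survive 7 of the 12 single omissions (each negative and Yap siRNA library and Wwtr1 siRNA replicate 2) nor the fit without the intensity trend (adjusted p = 0.0715). The double knockdown had 4 higher genes of the 14 and none lower, beside 17.1% higher and 15.6% lower of all genes.

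LXR is a nuclear receptor for oxysterols that also drives Srebf1. None of 8 listed oxysterol enzymes and LXR genes was called by limma after Wwtr1 siRNA, although 4 had an unadjusted p under 0.05, and with the block 2 were higher and 1 (Ch25h) lower, beside 21.3% of all genes in either direction. Abca1, a cholesterol exporter, gave -0.07 (adjusted p = 0.858), and Mylip, an LXR target that encodes a ubiquitin ligase, -0.41 (adjusted p = 0.113). Ch25h, which makes an oxysterol, had 580, 555 and 464 normalized counts after negative siRNA and 194, 328 and 258 after Wwtr1 siRNA (-1.06 ± 0.43 SE, adjusted p = 0.155, and 0.0029 with the block). With no block it was called with the double knockdown libraries left out (adjusted p = 0.0116), on the compared groups alone (0.0151) and without double knockdown replicate 3 (0.0224). Its double knockdown values were 324, 621 and 1531, the highest again in replicate 3. After both siRNAs 4 of the 8 were higher, beside 17.1% of all genes, with Abcg1 (a cholesterol exporter) rising most, from 307, 386 and 329 to 880.2, 1312 and 1343 (1.77 ± 0.21, adjusted p = 0.000103), while Abca1 was not called (0.41, adjusted p = 0.134).

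**Figure D4:**
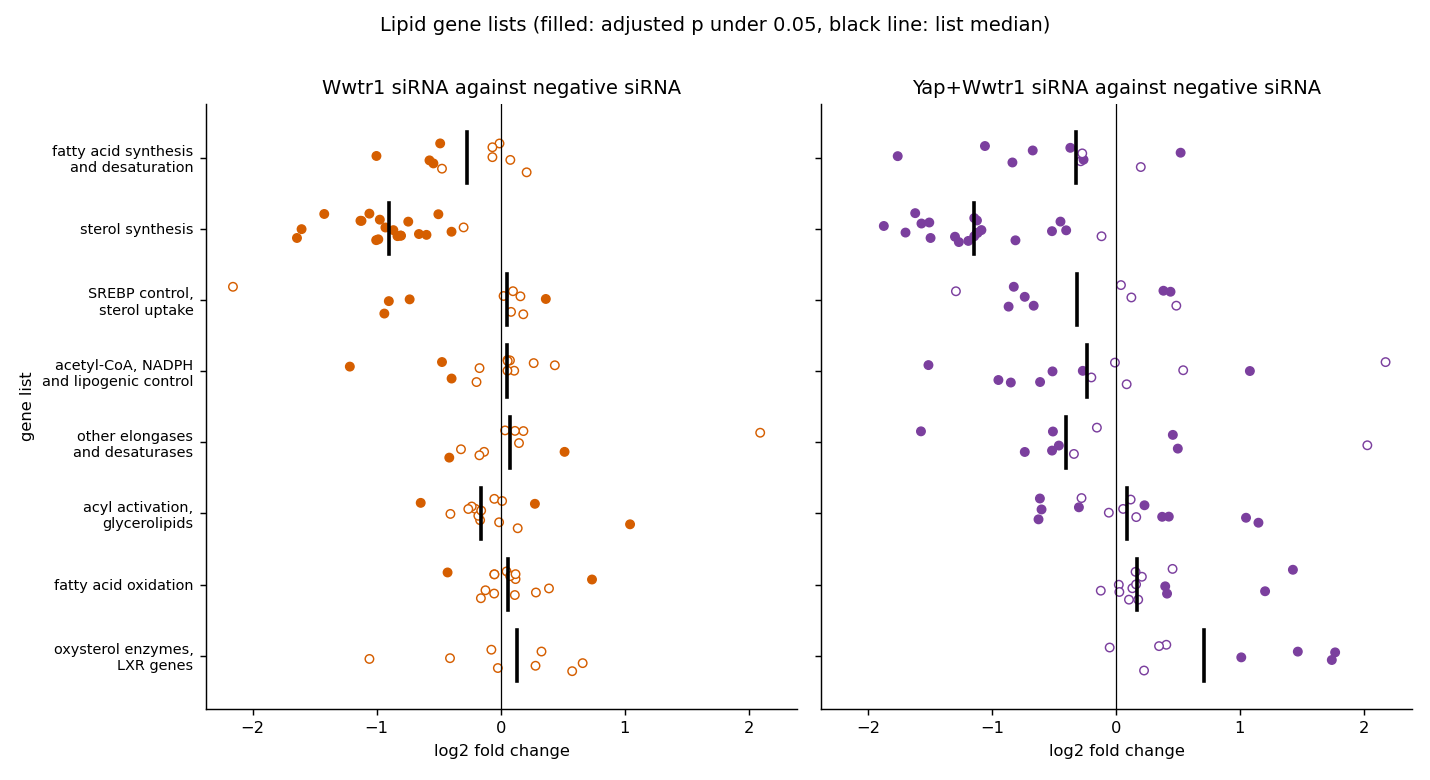
Log2 fold change (x axis) of each tested gene of 8 lipid gene lists (y axis) after Wwtr1 siRNA (left) and Yap+Wwtr1 siRNA (right) against negative siRNA, filled where the adjusted p is under 0.05, with each list's median as a black line. After Wwtr1 siRNA the sterol synthesis median lies at -0.90 and the fatty acid synthesis median at -0.27. Points are spread vertically only to separate them.

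Across the 12 libraries, the genes whose log2 values were most like those of Fasn included sterol genes. Compared over 10101 genes, those with a mean of 100 normalized counts or more, the highest Pearson r with Fasn was for Acat2 (0.98), Nap1l1 (0.98) and Lss (0.97), of which Acat2 and Lss are sterol synthesis genes. For Scd the 3 nearest were Mycbp (0.97), Oip5 (0.96) and Acat2 (0.96), and for Srebf1 they were Gpm6b (0.87), Osbp2 (0.85) and Popdc2 (0.85). Between Fasn and the other genes of the pathway r was 0.93 for Acly and Scd, 0.85 for Elovl6, 0.67 for Fads2, 0.43 for Elovl5, 0.36 for Acaca, 0.20 for Fads1, -0.17 for Acss2 and -0.48 for Srebf1. The 12 libraries share group means, so these values describe the 4 groups as much as single libraries.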

How the data were processed

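RNA sequencing libraries of 12 cultures (4 siRNA groups of 3) had been sequenced by the authors. Per the labels, the submitters' processing notes and the study's methods, reads were trimmed with Trim Galore 0.6.5, aligned to build rn6 with HISAT2 (version 2 in the notes), assembled with StringTie and normalized with DESeq2. The deposited signal values are therefore read counts divided by a size factor per library, 1 value per gene. How strand, genes with shared reads (such as Scd and Scd2) and overlapping genes were handled is not given in the sources used here. A further normalized table was a copy, and tables of the authors' fold changes and p-values were not used.

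The study tested read counts with DESeq2. Since normalized values were deposited, the main test was limma 3.58.1 (R 4.3.3) with an intensity trend on log2(normalized count + 1), in 1 fit of all 12 libraries over the 11871 genes whose mean reached 10 normalized counts. Tests were two-sided, with Benjamini-Hochberg adjustment over all genes tested and a threshold of 0.05. A log2 fold change on this scale understates changes of low genes. Whole reads were recovered for 100% of 147252 values (tolerance 0.05 reads), and edgeR 4.0.16 and DESeq2 1.42.0 were run on them as alternatives. In 6 cases a gene was listed at 0 in a library while the other libraries of the group were over 100, none of them a gene of the pathway. The scripts were tested on simulated data, with known log2 changes set in 100 genes per size. For Wwtr1 against negative siRNA 23% of changes of 0.5 and 70% of changes of 1 were recovered. For the interaction 2% and 50% were recovered. A gene that was not called may therefore still have changed by such amounts.

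Replicate numbers came from the sample titles. Among the negative, Yap and Wwtr1 siRNA libraries the deviations of same-numbered libraries correlated at 0.104 to 0.276 in all 9 pairs. The limit for pairing was a correlation over 0.1, so these were treated as paired in the replicate block. Correlations of different-numbered libraries were not computed for comparison, so the evidence for pairing is weak. The fit with this block also leaves out the double knockdown libraries. With the double knockdown the 9 values ran from -0.127 to 0.180, and those numbers were not treated as pairs.

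The members and lists were chosen with earlier results of these data known. Named genes were the 10 members, Yap1, Wwtr1, a set of genes of the neighbouring pathways, and for each other metabolic list the called gene with the largest rise and fall in the Wwtr1 siRNA and double knockdown comparisons. Pmvk, Ebp and Idh1 fall outside this rule and were chosen after their values were seen. RefSeq tables of build GRCr8 matched 11860 symbols (96.7%) and gave promoter windows, and no rn6 coordinates were derived. Some genes covered by the rule are not reported here.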

Additional observations from a re-analysis of the deposited data

Results flagged for a closer look

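For Acss2 the Wwtr1 siRNA effect pointed opposite ways without and with Yap siRNA. All 3 Wwtr1 siRNA libraries lay below the negative siRNA mean (log2 fold change -0.47) and all 3 double knockdown libraries above the Yap siRNA mean (0.21), but single libraries overlapped in both comparisons. In the fit of all libraries without a block neither change was called (adjusted p = 0.0862 and 0.422, the latter with a 95% interval from -0.14 to 0.55). The first was called with the replicate block fitted without the double knockdown libraries (adjusted p = 0.0037) and by DESeq2 on recovered reads (0.0381). The difference of 0.68 ± 0.22 (SE, log2, limma) had an unadjusted p of 0.0102 and an adjusted p of 0.188 (not called), and an adjusted p of 0.0387 with a replicate block over all libraries. Such a block pairs the double knockdown libraries by numbers that were not shown to be pairs. No cause was tested.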

How the results depend on the processing

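Of 568 values of the 24 calls on the 10 genes under alternatives, 512 stayed past the threshold, 56 did not and none changed direction. Of the 56, 43 came from leaving out a library. With the replicate block fitted without the double knockdown libraries, the genes called of the 10 became 7 for Yap against negative siRNA and 6 for Yap against Wwtr1 siRNA, and the calls over all genes became 2527 for Wwtr1 against negative siRNA, 1904 for Yap against negative siRNA and 2680 for Yap against Wwtr1 siRNA. A block over all libraries gave 1 call of the 10 for the interaction (Acss2), 231 interaction calls over all genes and 874 calls over all genes for Yap against negative siRNA. Numbers of the double knockdown were not shown to be pairs. Without the intensity trend, 1 of the 10 was called for Yap against negative siRNA and 1 for Yap against Wwtr1 siRNA (Acly and Fasn lost), and over all genes 294 for Yap against negative siRNA, 816 for Yap against Wwtr1 siRNA and 60 for the interaction. DESeq2 on recovered reads called 1013 genes for Yap against negative siRNA and 500 for the interaction. Fits of only the compared groups called 2 of the 10 for the double knockdown against Yap siRNA, with 774 genes in all (Elovl6 and Acly lost), and 2 against Wwtr1 siRNA, with 1661 in all (Scd, Elovl5 and Fads2 lost). The cause of these shifts was not tested.

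Leaving out each of the 12 libraries in turn, genes called of the 10 ranged from 3 to 5 for Wwtr1 against negative siRNA, from 0 (without Yap siRNA replicate 1) to 3 for Yap against negative siRNA, from 5 to 8 for the double knockdown against negative siRNA, from 1 to 3 for Yap against Wwtr1 siRNA, from 2 to 4 for the double knockdown against Yap siRNA, from 2 to 6 against Wwtr1 siRNA, and stayed at 0 for the interaction. Sterol genes called after Wwtr1 siRNA ranged from 18 to 19. Over all genes the calls ranged from 548 to 1419 for Wwtr1 against negative siRNA, from 111 to 764 for Yap against negative siRNA, from 2745 to 4054 for the double knockdown against negative siRNA, from 434 to 1409 for Yap against Wwtr1 siRNA, from 758 to 1873 for the double knockdown against Yap siRNA, from 1288 to 2340 against Wwtr1 siRNA and from 31 to 160 for the interaction, with most upper ends reached without double knockdown replicate 3.

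Sign changes occurred in log2 values near 0 that were not called. The Scd interaction was 0.021 with edgeR and 0.025 with DESeq2, and ran from -0.35 to 0.14 over single omissions. Likewise Srebf1 ran from -0.14 to 0.10 for Yap against negative siRNA, from -0.12 to 0.095 for the double knockdown against Wwtr1 siRNA and from -0.10 to 0.14 for the interaction. Acaca ran from -0.13 to 0.031 for Wwtr1 against negative siRNA, from -0.082 to 0.12 for the double knockdown against Yap siRNA and from -0.015 to 0.19 for the interaction. Fads1 ran from -0.062 to 0.17, from -0.093 to 0.15 and from -0.17 to 0.11 in the same order. For Wwtr1 against negative siRNA Elovl5 ran from -0.030 to 0.016 and Fads2 from -0.17 to 0.015, and the Fasn interaction from -0.16 to 0.0086. With 3 libraries a group the intervals of these values include 0, and RNA levels carry no measure of SREBP cleavage.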
